A study of Mus musculus with 4 samples.

Results

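The genes described here encode the main structural proteins of basement membranes and a matrix protein that binds collagen IV, and they are 10 of the 53379 genes in the deposited tables: *Col4a1*, *Col4a2*, *Lama1*, *Lama5*, *Lamb1*, *Lamc1*, *Nid1*, *Nid2*, *Hspg2* and *Sparc*. They were found by their exact gene symbol, but the set was chosen by the measured difference of their counts and TPM values between PD100 and PD800 cells, so that these values are a description and carry no p-value. RNA was sequenced from DKO741, a mouse embryonic stem cell (mESC) line in which both alleles of *Terc*, the gene of the telomerase RNA, were disrupted in E14 cells, and every library of both groups carries this disruption. Cells at population doubling 100 (PD100) were pre-ALT cells, which still lived on their original telomeres, and cells at population doubling 800 (PD800) were post-ALT survivors, which maintained telomeres without telomerase by alternative lengthening (ALT). Each group had 2 libraries, which the methods call biological duplicates. DKO741 is 1 clone, the cells were taken feeder-free although fibroblast feeders served for maintenance and stocks, and no library of cells with intact *Terc* was analysed here, so that ALT, time in culture and clonal drift cannot be told apart.

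Basement membranes are thin sheets of extracellular matrix on which epithelia rest. Laminins, trimers of an alpha, a beta and a gamma chain, assemble first at the cell surface, collagen IV forms a covalently crosslinked second network, and nidogens and the heparan sulphate proteoglycan perlecan tie both together. In the early mouse embryo the primitive endoderm and its derivatives are the most active producers of these proteins, and embryonic stem cells that turn towards endoderm lay down a basement membrane of their own.

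The 4 libraries held total expected counts, which are the read pairs that RSEM assigned to genes, of between 32454121 and 38492149, and a floor of 3 counts lay between 0.0743 and 0.0934 CPM (read counts relative to each library's total, corrected with TMM factors). The floor covers counting error only. A single read pair in PD100 replicate 1 (count 1, against 0 elsewhere) was assigned to *Terc*, the targeted gene. Over the 19148 genes with enough reads to be tested, log2 CPM correlated across genes at 0.98 within PD100 and 0.988 within PD800 cells, and libraries of different groups correlated at 0.924 to 0.935. All 10 basement membrane genes were among the tested genes. With 2 libraries against 2, a two-sided exact permutation test of 1 gene cannot give a p below 0.333, so that every adjusted p below rests on the spread that edgeR estimates over all genes. A gene was called changed when its adjusted p lay under 0.01 and its level differed more than 2-fold.

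The collagen IV chains stood furthest apart between the groups. *Col4a1*, which encodes the more abundant chain of the embryonic collagen IV trimer, had TPM values (a level scaled for gene length and library size) of 149.6 and 178 in PD100 replicates 1 and 2, and of 5.94 and 6.68 in PD800 replicates 1 and 2. Both PD100 libraries lay far above both PD800 libraries, and in CPM the mean was 1148 ± 143 (SD, n = 2) in PD100 and 53.5 ± 5.42 (SD, n = 2) in PD800 cells. The level in PD800 cells was therefore 21.5-fold lower, a log2 fold change of -4.42 with a standard error (SE) of 0.14. *Col4a2*, which encodes the partner chain of the same trimer, had TPM values of 47.4 and 52.4 in the PD100 replicates and of 1.47 and 1.52 in the PD800 replicates. Its groups did not overlap either, the CPM in PD800 cells was 29.1-fold lower, and the log2 fold change of -4.86 (SE 0.14) lay so low that 0.418% of all tested genes had a lower one. Both PD800 values of *Col4a2* rest on more than the floor, with expected counts of 517 and 460. Ranked by mean TPM among all genes, *Col4a1* moved from place 400 in PD100 to place 6416 in PD800 cells, and *Col4a2* from place 1241 to place 10865.

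The pair sits head to head on chromosome 8 of GRCm38 (mm10). In the GENCODE M21 annotation *Col4a1* (ENSMUSG00000031502.11) runs on the minus strand from 11198423 to 11312826 with 52 exons in its principal transcript, and *Col4a2* (ENSMUSG00000031503.13), with 48 exons, extends the other way, on the plus strand, between 11312805 and 11449287. The annotated genes overlap by 22 bases at their starts, so that the promoter of one gene lies in the body of the other. These 30 bases of the plus strand, chr8:11312801-11312830 (RefSeq, GRCm38.p6), are shown because both collagen IV genes of the set start within them. The capitals mark the 22 shared bases, and they hold 1 GC box (GGGCGG).
Col4a1 and Col4a2 shared start: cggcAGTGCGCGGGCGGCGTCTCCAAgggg
Antisense transcripts are annotated over both genes, and whether the counting used strand is not stated, so that reads from the overlaps cannot be assigned with certainty.

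The level of *Col4a1* was above that of *Col4a2* in each library. The ratio of their TPM values was 3.16 and 3.39 in the PD100 replicates and 4.04 and 4.39 in the PD800 replicates. The log2 fold changes of the pair lay 0.44 apart. *Col4a1* and *Col4a2* together made up nearly the whole collagen IV message, since *Col4a1* took 75.7% and 77.0% of the summed TPM of *Col4a1* to *Col4a6* in the PD100 replicates and 78.3% and 78.7% in the PD800 replicates, and *Col4a2* took 24.0%, 22.7%, 19.4% and 17.9% in the same order. *Col4a5*, a chain of the more specialised collagen IV networks, took 0.258% and 0.273% in PD100 and 1.71% and 1.77% in PD800 libraries. Its own level was low and fell as well (log2 fold change -1.77, SE 0.29, adjusted p = 0.00454, edgeR's quasi-likelihood test).

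**Figure D1:**
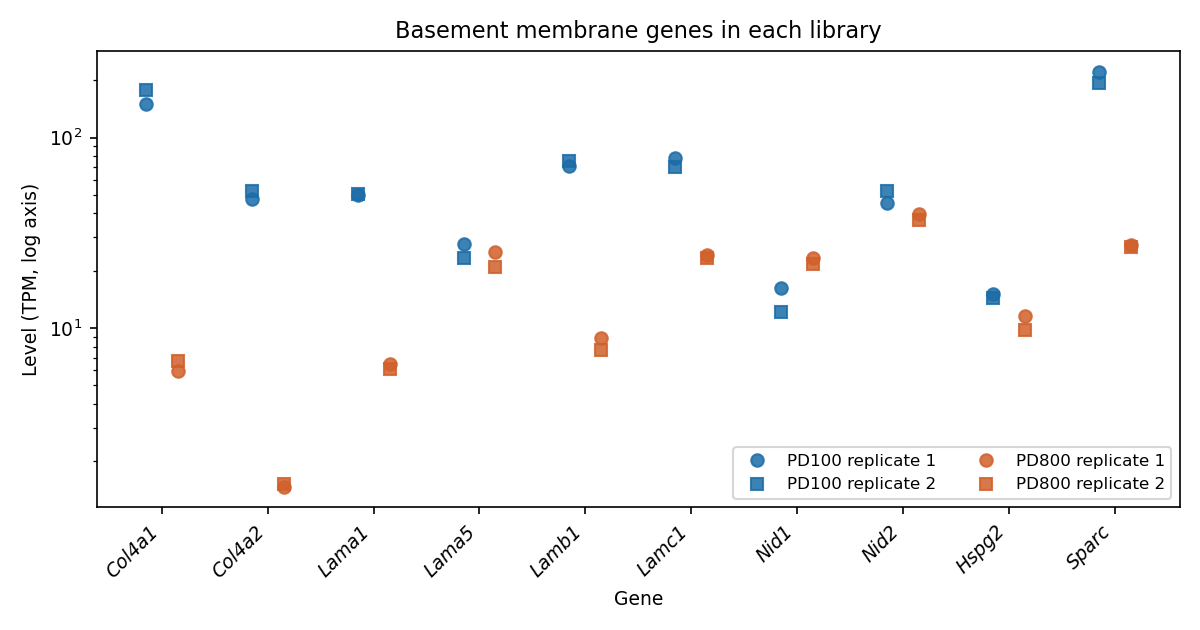
Level of the 10 basement membrane genes in each of the 4 libraries, in TPM on a log axis; circles are replicate 1 and squares replicate 2 of PD100 (blue) and PD800 (orange) cells. *Col4a1* lies at 149.6 and 178 TPM in PD100 and at 5.94 and 6.68 TPM in PD800 cells, whereas the points of *Lama5* overlap between the groups.

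Of the laminin chains, 3 were lower in PD800 cells and 1 stood at a similar level in both groups. *Lama1* encodes the alpha chain of the first laminin that the embryo makes, and its TPM was 49.9 and 50.6 in the PD100 replicates against 6.45 and 6.12 in the PD800 replicates. The groups of *Lama1* were well separated, the CPM was 6.78-fold lower in PD800 cells, and the log2 fold change was -2.76 (SE 0.09). *Lamb1*, which encodes the beta chain of that laminin, had TPM values of 71.3 and 75.1 in PD100 and of 8.83 and 7.68 in PD800 libraries. *Lamb1* was 7.60-fold lower in CPM (log2 fold change -2.93, SE 0.10), a change that lay 0.16 from that of *Lama1*. *Lamc1* encodes the gamma chain shared by most laminins, and its TPM was 77.9 and 70.2 in PD100 and 24.3 and 23.3 in PD800 libraries. *Lamc1* was also lower in both PD800 libraries, but only 2.77-fold (log2 fold change -1.47, SE 0.08).

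*Lama5*, the alpha chain of the laminins found in most adult epithelia and also made by pluripotent cells, was the exception among the laminin chains of the set. It had TPM values of 27.7 and 23.3 in the PD100 replicates and of 25.2 and 21.03 in the PD800 replicates. These values interleave, and *Lama5* was the only gene of the 10 whose groups overlapped in TPM, and likewise in CPM, where the means were 186 ± 1.35 (SD, n = 2) and 178 ± 14.9 (SD, n = 2). Its log2 fold change was -0.06 (SE 0.09), and it went from -0.15 without PD800 replicate 1 to 0.02 without PD800 replicate 2.

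The alpha chain make-up of the laminin message therefore turned over between the groups. *Lama1* took 62.6% and 67.1% of the summed TPM of *Lama1* to *Lama5* in the PD100 replicates and 20.1% and 22.2% in the PD800 replicates. *Lama5* took 34.8% and 30.9% in PD100 and 78.5% and 76.4% in PD800 libraries. The sum itself was 79.7 and 75.4 TPM in PD100 and 32.1 and 27.5 TPM in PD800 libraries, so that the larger share of *Lama5* came with a smaller total and a similar level of *Lama5*. The ratio of *Lama1* to *Lama5* was 1.80 and 2.17 in PD100 and 0.256 and 0.291 in PD800 libraries.

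Among the beta chains, *Lamb1* took 89.2% and 89.4% of the summed TPM of *Lamb1* to *Lamb3* in PD100 and 53.8% and 55.2% in PD800 libraries. The rest was mostly *Lamb2*, the beta chain of muscle, nerve and kidney laminins, with 9.50% and 9.32% in PD100 and 44.5% and 43.2% in PD800 libraries. The level of *Lamb2*, which was chosen for mention after its values were seen, was 7.59 and 7.83 TPM in PD100 and 7.31 and 6.01 TPM in PD800 libraries (log2 fold change -0.16, SE 0.10, adjusted p = 0.273). In TPM the ratio of *Lamb1* to *Lamc1* was 0.914 and 1.07 in PD100 libraries, close to equal levels, and 0.364 and 0.329 in PD800 libraries.

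**Figure D2:**
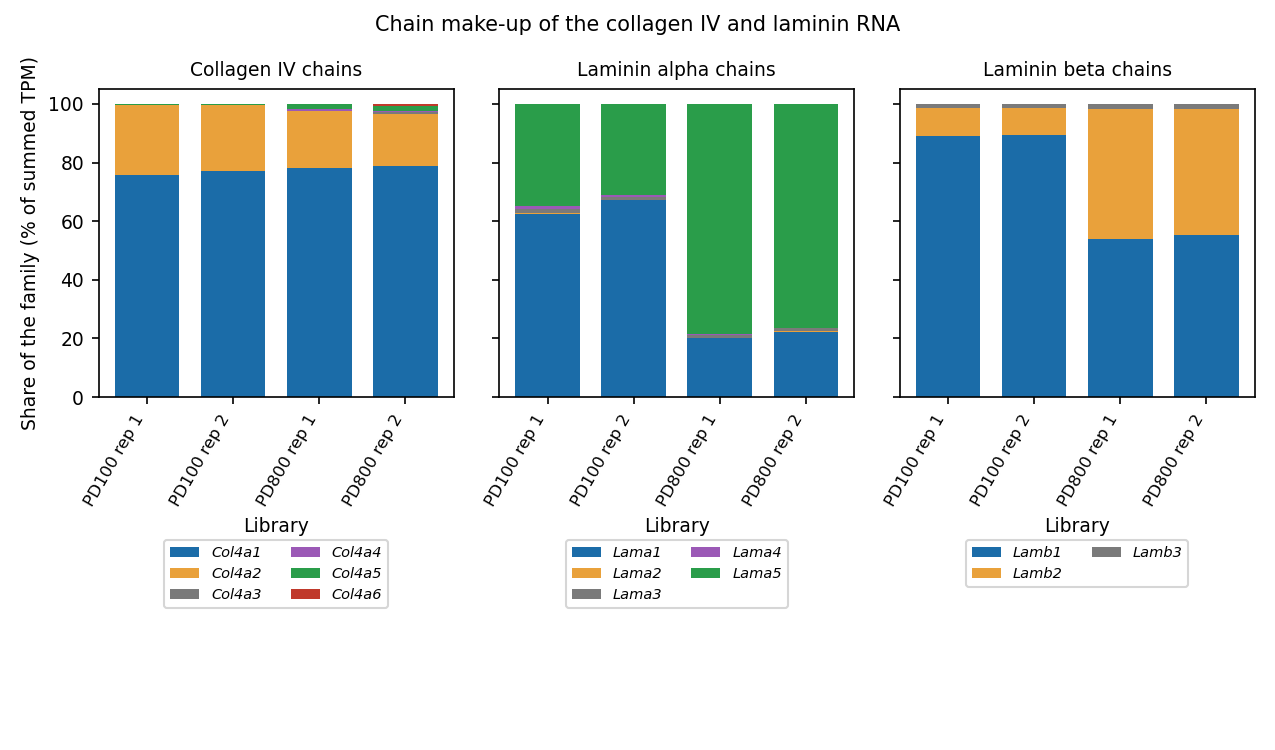
Share of each chain in the summed TPM of its family (in %, bars stacked to the whole) in the 4 libraries, for the collagen IV, laminin alpha and laminin beta chains. *Lama1* takes 62.6% and 67.1% of the alpha chain message in PD100 and 20.1% and 22.2% in PD800 libraries, and *Lamb1* takes 89.2% and 89.4% of the beta chain message in PD100 and 53.8% and 55.2% in PD800 libraries.

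The nidogens, which bridge laminin and collagen IV, were not called in either direction. *Nid1* had TPM values of 16.2 and 12.1 in the PD100 replicates and of 23.2 and 21.6 in the PD800 replicates. *Nid1* was thus the only gene of the set that was higher in both PD800 libraries, 1.95-fold in CPM (log2 fold change 0.96, SE 0.08), just below the 2-fold limit used for calls, and past it, at 1.03, without PD100 replicate 1. On the TPM scale the difference was smaller, with a log2 fold change of 0.64 on log2(TPM + 1). *Nid2* had TPM values of 45.5 and 52.7 in PD100 and of 39.9 and 36.7 in PD800 libraries, so that both PD800 libraries lay below both PD100 libraries, and its log2 fold change was -0.07 (SE 0.07) in counts and -0.35 on log2(TPM + 1). The effective length that RSEM gave *Nid2* ranged from 2793 to 3685 bases between libraries, and *Nid2* overlaps *Rtraf* on the opposite strand, so that its TPM and its count carry an uncertainty beyond the spread of the replicates. The *Nid2* level was 2.81 and 4.35 times that of *Nid1* in PD100 and 1.72 and 1.70 times in PD800 libraries.

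The bases before the first annotated start of *Lamb1*, one of the lowered laminin genes, and of *Nid1*, the gene that was higher, are shown side by side, from the RefSeq promoter table. Both are given on the plus strand of GRCm38.p6, and the capitals mark GC boxes (GGGCGG, or CCGCCC on the other strand) and CCAAT boxes (CCAAT, or ATTGG on the other strand). The stretch of *Lamb1*, chr12:31265043-31265233, has 191 bases, 63.9% G and C, 2 GC boxes and 1 CCAAT box, and that of *Nid1*, chr13:13437352-13437550, has 199 bases, 63.8% G and C, 1 GC box and 1 CCAAT box.
Lamb1: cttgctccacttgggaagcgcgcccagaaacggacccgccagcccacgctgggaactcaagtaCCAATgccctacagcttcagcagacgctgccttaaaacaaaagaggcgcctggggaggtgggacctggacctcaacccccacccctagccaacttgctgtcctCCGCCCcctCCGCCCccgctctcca
Nid1: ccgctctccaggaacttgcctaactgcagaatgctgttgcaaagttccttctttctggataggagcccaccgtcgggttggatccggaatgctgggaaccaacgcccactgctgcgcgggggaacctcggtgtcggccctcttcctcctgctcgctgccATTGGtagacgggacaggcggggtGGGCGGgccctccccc
A promoter of 300 bases (250 before and 50 after the start) was found for 7 of the 10 genes, all but *Lama1*, *Lamc1* and *Nid2*. Searched on both strands, the GC box occurred once in *Col4a1*, 3 times in *Col4a2*, 4 times in *Lama5*, 2 times in *Lamb1*, once in *Nid1*, 5 times in *Hspg2* and not in *Sparc*, and 35.6% of the 32817 promoters of the table held at least 1. The windows of *Col4a1* and *Col4a2* overlap, so that the GC box in their 22 shared bases was counted for both genes. The CCAAT box occurred once each in *Col4a1*, *Col4a2*, *Lamb1* and *Nid1* and not in the other 3, and 37.4% of all promoters held it. None of the 7 windows held the TATA box letters TATAAA, which 13.6% of all promoters held. The same was true of the GATA motif AGATAA (11.2% of all promoters) and of the SOX motif ACAAAG (18.7%). Nor did any window hold the AP-1 motif TGANTCA, found in 7.81% of all promoters. The window of *Sparc* surrounds the start of its RefSeq entry at 55420080, which lies inside the gene as GENCODE annotates it (start at 55423183 on the minus strand), so that the window does not cover the GENCODE start. A match is a description of these letters and no sign of a factor's binding.

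Perlecan, encoded by *Hspg2*, showed little difference. Its TPM was 15.1 and 14.4 in the PD100 replicates and 11.6 and 9.73 in the PD800 replicates. Both PD800 libraries lay below both PD100 libraries. The log2 fold change was -0.22 (SE 0.11), and it moved to -0.10 without PD800 replicate 2. *Sparc* encodes a secreted glycoprotein that binds collagen IV and is abundant in parietal endoderm, and it had the highest level of the set in both groups except for *Nid2* in PD800 cells. Its TPM was 222 and 193.5 in PD100 and 27.3 and 26.5 in PD800 libraries, and it was 6.56-fold lower in CPM (log2 fold change -2.71, SE 0.08). *Sparc* was among the most abundant messages of PD100 cells, at place 340 by mean TPM, and still at place 1990 in PD800 cells.

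Over the whole set, 6 of the 10 genes (all of which had passed the filter on low counts) passed the thresholds in the lower direction (*Col4a1*, *Col4a2*, *Lama1*, *Lamb1*, *Lamc1* and *Sparc*), 0 passed in the higher direction and 4 did not pass. Of all tested genes, 8.81% were called lower and 6.28% called higher, but the set was chosen with this comparison known and the counts are therefore given without a reading. The median log2 fold change was -2.09 over the 10 genes and 0.01 over all tested genes, and 9 of the 10 had CPM values that did not overlap between the groups, as did 73.7% of all tested genes. Arranged from the most to the least lowered, as a description, the log2 fold changes showed their widest gaps from *Col4a1* to *Lamb1* (1.5), from *Sparc* to *Lamc1* (1.24), from *Lamc1* to *Hspg2* (1.25) and from *Lama5* to *Nid1* (1.02). *Lamb1*, *Lama1* and *Sparc* lay close together, from -2.93 to -2.71, and so did *Hspg2*, *Nid2* and *Lama5*, from -0.22 to -0.06. The summed TPM of the set was 723 and 722 in the PD100 replicates and 174 and 161 in the PD800 replicates, of which *Col4a1* and *Sparc* made up 51.4% in each PD100 library and 19.1% and 20.6% in the PD800 libraries. In CPM, the coefficient of variation between replicates ran from 0.724% (*Lama5*) to 16.1% (*Col4a2*) in PD100 and from 0.101% (*Lamb1*) to 12.0% (*Hspg2*) in PD800 cells. The spread in TPM differed, with 25.5 ± 3.13 (SD, n = 2) for *Lama5* and 49.9 ± 3.56 (SD, n = 2) for *Col4a2* in PD100 cells.

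**Figure D3:**
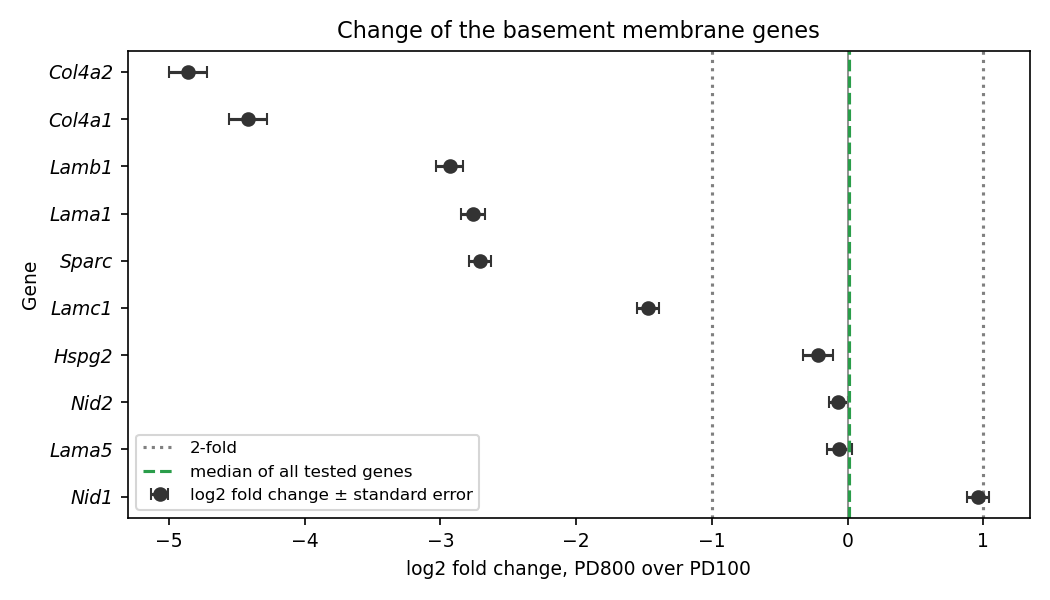
Log2 fold change of CPM, PD800 over PD100, of the 10 basement membrane genes, with bars of 1 standard error from the edgeR fit over all genes; dotted lines mark 2-fold and the dashed line the median of all tested genes. The collagen IV chains lie lowest at -4.86 and -4.42, *Lamb1*, *Lama1* and *Sparc* lie together from -2.93 to -2.71, and only *Nid1*, at 0.96, lies to the right of 0.

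Most tested markers of the endoderm that produces this matrix were also lower in PD800 cells. The marker lists were drawn up with earlier results of the same libraries known, so that their counts are a description. In bulk RNA, fewer cells of a type and less RNA per cell cannot be told apart. Of 20 primitive endoderm markers 18 could be tested, and 16 of them (88.9%) fell and 0 rose, with a median log2 fold change of -4.17. Of all tested genes, 8.81% were called lower and 6.28% higher. Some of the markers, *Sox17*, *Foxa2* and *Srgn* included, passed the filter on low counts only through their level in PD100 cells. A fit of genes with at least 10 counts in every library called 12 markers lower. The median was the same with the 3 genes at the floor in PD800 cells put at their bound. The summed TPM of the 20 markers was 462 and 444 in the PD100 replicates and 23.2 and 22.2 in the PD800 replicates. *Sox17*, a transcription factor that specifies primitive endoderm, was at 17.6 and 17.4 CPM in PD100 and at 0.25 and 0.28 CPM in PD800 libraries, where it had 9 counts each, and its fitted log2 fold change was -6.03 (SE 0.15). *Foxa2*, another endoderm transcription factor, was at least 57.1-fold lower and *Srgn*, which encodes the proteoglycan serglycin, at least 296-fold lower, both taken against the mean floor of the PD800 libraries. The keratin genes *Krt8* and *Krt18*, the most abundant of the list, fell with log2 fold changes of -4.35 and -5.02. *Afp* and *Ttr*, secreted products of mature visceral endoderm, had at most 4 counts in any PD100 library and 0 in both PD800 libraries. The part of endoderm-like cells in the lower level of the 6 basement membrane genes was not tested.

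Some fibroblast markers were lower in PD800 cells. The summed TPM of the 20 fibroblast markers was 52.2 and 49.6 in the PD100 and 13.6 and 13.4 in the PD800 replicates. Of the 18 that could be tested, 11 (61.1%) fell and 0 rose (median log2 fold change -1.71), beside 8.81% and 6.28% of all tested genes. On log2(TPM + 1), where low levels are compressed, 4 were called lower. The fibrillar collagen gene *Col1a1* was at 13 and 24.4 CPM in PD100 and at 1.95 and 2.52 CPM in PD800 libraries (log2 fold change -3.07, SE 0.34, adjusted p = 0.00101). *Col3a1*, *Col6a2* and *Acta2*, a smooth muscle actin gene, fell with log2 fold changes of -2.52, -2.67 and -2.36. Of the 7 that were tested and not called, *S100a4* had a log2 fold change of -0.82 (adjusted p = 0.0174). *Lum*, which encodes a matrix proteoglycan of connective tissue, had at most 1 count in any library and was not tested. Whether feeder cells contributed to the basement membrane message was not tested. Of the 12 embryonic stem cell markers 4 (33.3%) rose and 0 fell, beside 6.28% and 8.81% of all tested genes. *Klf4*, *Nanog* and *Esrrb*, factors of the naive state, rose by 2.84, 2.32 and 2.06 on the log2 scale, and the 4th was *Fgf4*. *Pou5f1*, the factor shared by all pluripotent states, was at 467, 503, 601 and 635 CPM in the 4 libraries (log2 fold change 0.35, adjusted p = 0.0194). *Dppa5a* had a log2 fold change of 0.54 (adjusted p = 0.15), and of 1.01, a call, without PD100 replicate 2.

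The rest of the basement membrane pathway was followed in 6 lists of 128 genes, none of them among the 10. Of the 123 that could be tested, 44 fell and 4 rose, which is 35.8% and 3.25%, beside 8.81% and 6.28% of all tested genes. The median log2 fold change was -0.60, and 75 genes were not called. By list, 46.4% of the tested other network components fell, 37.9% of the collagen IV folding genes and 27.8% of the receptors. The share was 7.14% for dystroglycan glycosylation, 52.6% for turnover and 26.7% for the intracellular links. In the same order of lists, 7.14%, 0%, 5.56%, 0%, 5.26% and 0% rose. These lists were drawn up with earlier results of the same libraries known, so that the counts describe them and are no independent evidence of a direction.

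Of the 28 tested other components of the network, 13 fell and 2 rose (median log2 fold change -1.08), and 5 fell and 0 rose on log2(TPM + 1). *Tinagl1*, a matricellular protein that binds laminin, was at 33.3 and 33.1 CPM in PD100 and at 1.95 and 1.28 CPM in PD800 libraries (log2 fold change -4.35, SE 0.17, adjusted p = 4.9e-05). *Egflam*, which encodes the dystroglycan ligand pikachurin, had a fitted log2 fold change of -4.33 (SE 0.48) at 5 and 1 counts in the PD800 libraries, so that it was tested only through its level in PD100 cells, and a fit of genes with at least 10 counts in every library called 12 network components lower. *Lama4*, the alpha chain of vascular laminins, fell by 2.22 (SE 0.25, adjusted p = 0.00109). *Frem1*, a protein of the Fraser complex at the epidermal basement membrane, rose by 2.47 from 0.372 and 0.36 CPM to 2 and 2.09 CPM (adjusted p = 0.000651). *Ntn1*, a laminin-related guidance cue, rose by 1.19 (SE 0.08, adjusted p = 0.000189). On log2(TPM + 1) neither was called, with log2 fold changes of 0.18 for *Frem1* and 0.79 for *Ntn1*, and nor were *Lama4* (-0.59) and *Egflam* (-0.52). The most abundant genes of the list were not called. *Col18a1*, the collagen whose end fragment is endostatin, was at 265 and 320 CPM in PD100 and at 146 and 157 CPM in PD800 libraries, just inside 2-fold (log2 fold change -0.95, adjusted p = 0.00115), and it was called lower at -1.08 without PD100 replicate 1 and at -1.18 on log2(TPM + 1). *Fn1*, which encodes fibronectin, had a log2 fold change of -0.46 (adjusted p = 0.0185).

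The machinery that folds, exports and crosslinks collagen IV fell in part. Of 29 tested genes 11 fell and 0 rose (median log2 fold change -0.55), and 7 fell on log2(TPM + 1). *Serpinh1*, the collagen chaperone of the endoplasmic reticulum, was at 240 and 230 CPM in PD100 and at 48.1 and 47.2 CPM in PD800 libraries, a fall of 2.30 on the log2 scale (adjusted p = 3.9e-05). *P4ha2*, a catalytic subunit of the prolyl hydroxylase that stabilises the triple helix, fell by 2.96, and *P3h2*, a prolyl 3-hydroxylase that acts on collagen IV, had a log2 fold change of -3.43, was not called on log2(TPM + 1) (-0.79) and had fewer than 10 counts in at least 1 library. *Loxl2*, which crosslinks collagen IV, fell by 3.76 (SE 0.08), from 99.6 and 98.2 CPM to 7.42 and 7.19 CPM. *P4hb*, the disulphide isomerase that is the other subunit of the prolyl hydroxylase and serves many secreted proteins, went the other way, with 707 and 757 CPM in PD100 and 1139 and 1194 CPM in PD800 libraries, short of 2-fold (log2 fold change 0.67, adjusted p = 0.00179).

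Of 18 receptors for the network, all tested, 5 fell and 1 rose (median log2 fold change -0.29). *Itgb1*, the integrin beta chain shared by the laminin and collagen receptors, was at 338 and 374 CPM in PD100 and at 67.3 and 72.0 CPM in PD800 libraries (log2 fold change -2.35, SE 0.09, adjusted p = 4.9e-05). *Itga6*, an alpha chain of laminin receptors that pairs with it, was at 167 and 188 CPM in PD100 and at 250 and 259 CPM in PD800 libraries (log2 fold change 0.52, adjusted p = 0.00482), short of 2-fold. *Cd44*, a receptor for hyaluronan and other matrix, fell by 2.65, and *Itga7*, an alpha chain of the laminin receptor of muscle, fell by 2.0 but was not called on log2(TPM + 1) (-0.64). *Itga9*, another integrin alpha chain, rose by 2.32 (SE 0.11, adjusted p = 6.9e-05). *Sdc4*, a heparan sulphate proteoglycan of the cell surface, had a log2 fold change of -0.02 (adjusted p = 0.922), and its sign turned when either PD100 replicate 2 or PD800 replicate 1 was left out.

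The enzymes that build the laminin-binding sugar of dystroglycan form a list of 14 tested genes, of which 1 fell (7.14%, beside 8.81% of all tested genes), 0 rose and 13 were not called (median log2 fold change 0.21). The gene that fell was *Tmem5*, which encodes a xylosyltransferase of the sugar chain (log2 fold change -1.24, SE 0.09, adjusted p = 0.000198). The most abundant, *B3galnt2* and *Dpm3*, had log2 fold changes of 0.46 (adjusted p = 0.00402) and 0.64 (adjusted p = 0.0599), and *Dpm3* was called higher at 1.02 without PD100 replicate 2.

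Most called genes of matrix turnover and all called genes of the intracellular links were lower in PD800 cells. Of 19 tested turnover genes 10 fell and 1 rose (median log2 fold change -1.34). *Plat*, the tissue plasminogen activator, fell by 4.94 from 19.4 and 17.6 CPM to 0.751 and 0.436 CPM (adjusted p = 5.3e-05). *Adamts1*, a secreted metalloprotease, fell by 3.87, and *Bmp1*, the protease that processes procollagens and laminin chains, fell by 2.78. *Mmp11*, the matrix metalloprotease stromelysin-3, was the 1 gene that rose, by 1.20 (SE 0.08, adjusted p = 0.000149), and it was not called on log2(TPM + 1) (0.81). *Ctsl*, a cathepsin and one of the most abundant genes of the list, fell by 1.34, whereas *Ctsb*, the other, had a log2 fold change of -0.69 (adjusted p = 0.000717) and was called lower on log2(TPM + 1) (-1.06). Of 15 genes that link integrins to actin 4 fell and 0 rose (median log2 fold change -0.60). They included *Zyx* (zyxin), *Fermt1* (a kindlin) and *Vcl* (vinculin), with log2 fold changes of -2.55, -1.58 and -1.88. *Flna* (filamin A) and *Ptk2* (focal adhesion kinase) had log2 fold changes of -0.87 (adjusted p = 0.000468) and -0.32 (adjusted p = 0.0236). On log2(TPM + 1) *Fermt1* was not called (-0.72) and *Flna* was (-1.08).

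**Figure D4:**
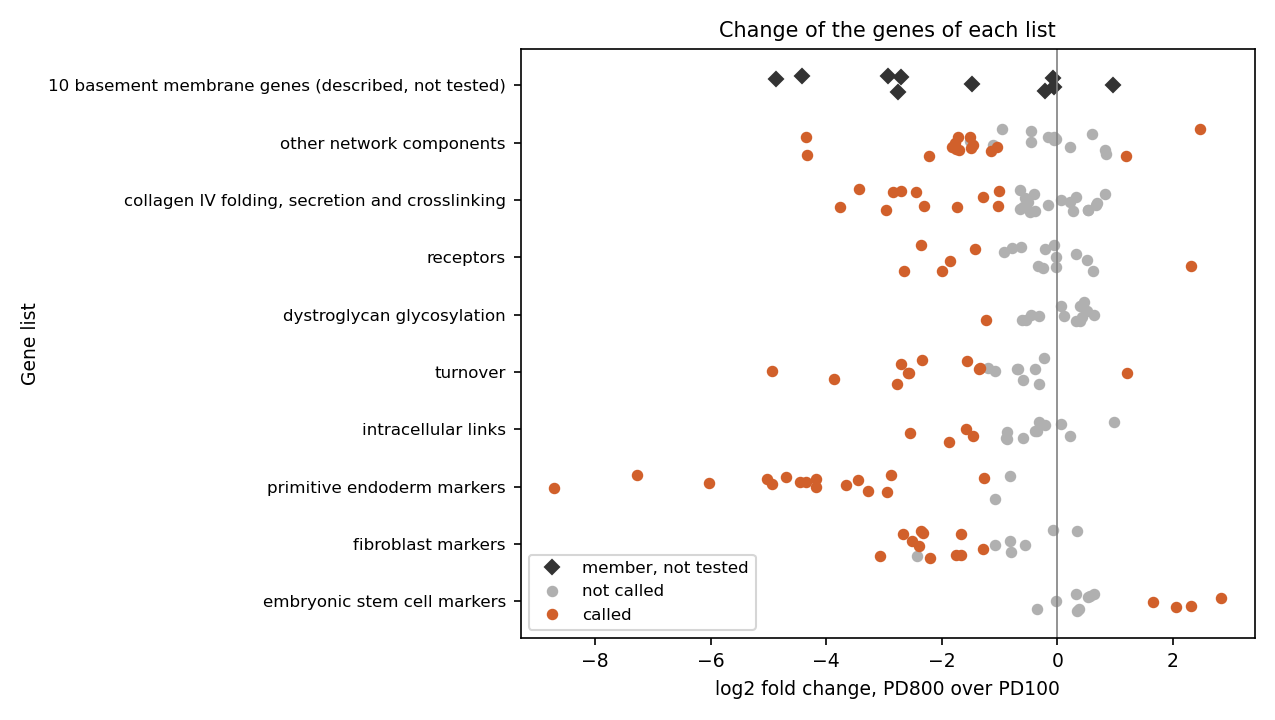
Log2 fold change, PD800 over PD100, of each tested gene of the 6 pathway lists and 3 marker lists; orange points were called changed, grey points were not, and the black diamonds are the 10 basement membrane genes. The primitive endoderm markers lie furthest to the left with a median of -4.17, and the dystroglycan enzymes lie around 0 with a median of 0.21.

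The median change of the neighbouring genes was below 0 around some of the genes and above 0 around others. Among tested genes within 1 Mb that do not overlap the gene itself, the median log2 fold change lay between -1.53 around *Lama1*, with 2 such genes, and 0.24 around *Hspg2*, with 28. It was -0.08 around *Lamb1*, -0.41 around *Lamc1*, -0.44 around *Sparc* and -0.52 around *Nid2*. The median was 0.05 around *Lama5* and 0.12 around *Nid1*. Around *Col4a1* and *Col4a2* it was -0.51 and -0.36, with 9 and 11 genes. The nearest tested gene on the left of this pair, *Irs2*, an insulin receptor substrate, had a log2 fold change of -2.30 (adjusted p = 0.000241), while *Rab20* on the right had -0.51 (adjusted p = 0.122). Beside *Lamb1*, *Fam110c* fell by 2.36 (adjusted p = 0.000957) and *Dld*, a mitochondrial dehydrogenase gene, had -0.12 (adjusted p = 0.25). Beside *Sparc*, *Fat2* fell by 2.41 (adjusted p = 0.000925) and *Atox1* had -0.81 (adjusted p = 0.000916). *Lama1* lay between *Ptprm* (-2.46, adjusted p = 0.000566) and *Arhgap28* (-0.61, adjusted p = 0.00355). Neighbours called lower numbered 7 of 33 around *Lama5*, 6 of 20 around *Lamc1*, 4 of 28 around *Nid2*, 3 of 28 around *Hspg2*, 2 of 20 around *Nid1* and 1 around each of the other genes, beside 8.81% of all tested genes. Neighbours called higher numbered 3 around *Hspg2*, 1 around *Lamc1*, 1 around *Col4a2* and 0 around the others, beside 6.28%. The nearest tested genes of *Lama5*, *Adrm1* and *Rps21*, had log2 fold changes of 0.46 (adjusted p = 0.0126) and 0.62 (adjusted p = 0.00125). *Lama5* lies 1.78 Mb from the last annotated base of chromosome 2. The nearest on the right of *Lamc1* was *E330020D12Rik* (-3.42, adjusted p = 0.00117). *Nid1* lay between *Gpr137b* (-0.47, adjusted p = 0.0133) and *Lyst* (0.60, adjusted p = 0.0038), and *Hspg2* between *Rpl31-ps10* (-0.22, adjusted p = 0.673) and *Usp48* (0.75, adjusted p = 0.00059). Beside *Nid2*, *Gm2237* had -0.57 (adjusted p = 0.0691) and *Gm48283* had -1.61 (adjusted p = 0.0642).

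The genes whose pattern over the 4 libraries lay nearest to the mean of the 10 were *Ina*, *Lrrfip1*, *Myc*, *Fgfbp1* and *Ptpn13*. Likeness was measured as the Euclidean distance between log2 CPM values centred on each gene's mean, over 4 libraries and among 10695 genes, each averaging 5 CPM or more. The distances were 0.0434, 0.0487, 0.0655, 0.0706 and 0.0746 in that order, and the log2 fold changes ran from -1.89 (*Fgfbp1*) to -1.80 (*Ptpn13*). *Ina*, the gene of the neuronal filament protein internexin, was at 42.3 and 45 CPM in PD100 and at 12.6 and 12.2 CPM in PD800 libraries. The genes of the set themselves lay between 0.385 (*Lamc1*) and 3.0 (*Col4a2*) from their mean, which shows how far apart they were. With 4 libraries in 2 groups, likeness is mostly a like difference between the groups.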

How the data were processed

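RNA of DKO741 cells was sequenced as read pairs on an Illumina HiSeq instrument, in 2 libraries each at PD100 and PD800. The study's text speaks of mRNA and population doublings, while the labels name total RNA and passages. The authors aligned reads to mm10 with STAR (version 2.5.3a) and deposited the RSEM (version 1.3.0) expected count of each gene, in which a read that fits several genes is divided. The authors also deposited TPM values, scaled for length and depth, and FPKM values, which were not used. The submitters' processing notes also name DESeq2 (version 1.18.1), and the annotation release is not given in the sources used here.

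After rounding the expected counts, edgeR 4.0.16 (R 4.3.3) was run with TMM factors on the 19148 genes that filterByExpr kept at min.count 10, and its quasi-likelihood p-values were Benjamini-Hochberg adjusted over all of them. Standard errors were calculated back from the F statistic of the same test. TMM factors were 1.05 and 1.03 in PD100 and 0.96 and 0.964 in PD800, and the common dispersion was 0.0136. Gene identifiers were matched to GENCODE M21 without their version (53274 of 53379, all 10 described genes included). The 10 genes and all lists were chosen with earlier results of these data known. Named genes are the 10, in each list the 3 highest and 3 lowest log2 fold changes among called genes and the 2 most abundant by mean TPM, the 5 nearest in pattern, and the nearest tested gene on each side. *Lamb2*, *Col4a5*, *Fgf4*, *Afp*, *Ttr* and *Lum* were added after their values were seen. A fold against a group with at most 3 counts in each library was taken against the mean floor of that group as a bound. Alternatives were DESeq2 1.42.0, its size factors, upper-quartile normalisation, other filters, limma 3.58.1 on log2(TPM + 1) and log2(TPM + 0.1), an adjusted p under 0.05 alone, the replicate number as a block, and each library left out. Strand, proteins and splicing were not analysed here, and some genes that were counted in the lists or among the neighbours are not reported here.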

Additional observations from a re-analysis of the deposited data

How the results depend on the processing

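The direction of every called gene among the 10 held in all alternatives run, and so did those of *Nid1* (log2 fold change 0.64 to 1.03), *Nid2* (-0.35 to -0.03) and *Hspg2* (-0.47 to -0.10), whereas *Lama5* ran from -0.15 to 0.02. Without PD100 replicate 1 the value of *Nid1*, 1.03, was past 2-fold. The median of the 10 was -2.09, and limma gave -2.21 with log2(TPM + 1) and -2.29 with log2(TPM + 0.1), which also moved the median of all genes to -0.12 and -0.21. They called 297 and 533 genes higher (24.4% and 23.1% of called genes, against 41.6%) and 920 and 1779 lower, against 1202 and 1686. Of the pathway genes that rose, 1 (*Itga9*) remained called on either scale. At an adjusted p under 0.05 with no fold threshold, 4224 genes were higher and 4515 lower, and 18 and 76 of the pathway genes. Single lists then had up to 19 lower calls (collagen IV folding, against 11), and 9 embryonic stem cell markers were higher, against 4. By limma, lower calls went to 5 for other network components (13), 7 for collagen IV folding and 4 for fibroblast markers (11 each) on log2(TPM + 1), and to 7 for intracellular links (4) on log2(TPM + 0.1). Leaving out 1 library, which assumes that the lone library of a group varies like the others, gave 880 to 1514 genes higher and 1274 to 1893 lower, 4 to 5 pathway genes higher and 38 to 44 lower, and medians of the 10 from -2.11 to -2.07. The log2 fold change of *Sdc4* then ran from -0.19 to 0.15, with 0.15 without PD100 replicate 2 and 0.08 without PD800 replicate 1. A fit with replicate number as block called 1461 genes higher and 1956 lower, among them 4 and 47 pathway genes. Deviations of same-numbered libraries correlated at 0.23 across genes, and with 2 pairs and no label that ties them the libraries share only a number. The causes were not tested. With no threshold on counts 4 and 47 pathway genes were higher and lower, with DESeq2 4 and 44. Depth did not limit the 10 genes, whose lowest count was 460.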
